A study of Macaca fascicularis and Mus musculus with 42 samples.

Results

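The SOX genes followed here as cynomolgus monkey embryonic stem cells (ESC) were induced toward germ cell-like cells were SOX2, SOX3, SOX4, SOX11, SOX15 and SOX17. They were chosen by symbol and are 6 of the 26018 entries of the monkey table, and their 6 mouse orthologs were read from the 34896 gene entries of the mouse table. The monkey gene identifiers in the table are 102140202 (SOX2), 102118100 (SOX3), 102136214 (SOX4), 102140541 (SOX11), 102130680 (SOX15) and 101925698 (SOX17). Levels are RPM, a gene's reads scaled to the same total in each library, from bulk libraries of transcript 3′ ends, each started from 1 ng of total RNA.

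The induced cells carried 2 transgenes, Blimp1-tdTomato (BT; Blimp1 is the protein of PRDM1) and TFAP2C-EGFP (AG), in lines 656BTAG42 and 656BTAG63. Every induced library used came from 656BTAG42, as did 3 of the 4 reporter ESC libraries used, and 1 came from 656BTAG63. ESC were grown in the AITS+IF20 condition and then aggregated in low-adherence wells with the cytokines BMP4 at 200 ng/ml, SCF at 100, EGF at 50 and LIF at 1000 U/ml, plus the kinase inhibitor Y27632 at 10 µM. The 2 induction conditions were GK15_BSEL (GMEM with 15% KSR, a serum replacement, called GK15 below) and aRB27_BSEL (Advanced RPMI1640 with B27, called aRB27 below). Sorted cells were BTAG positive (both reporters), BT single positive (from aRB27) or AG mid positive. The same transgenes were present in the reporter ESC, taken here as day 0, while 5 further ESC libraries came from lines CMK6, 656, 681F and 22 without transgenes. The mouse cells (line R8, Blimp1-membraneVenus and Dppa3-ECFP) were induced from epiblast-like cells in GK15 and taken at days 4 and 6. The labels do not say whether a reporter line is 1 clone, how the transgenes were inserted or whether libraries of a group came from separate cultures, so p-values measure the spread between these libraries, which may be technical.

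SOX proteins are transcription factors that bind DNA through a conserved HMG box and usually work with a partner. SOX2, of the SOXB1 subgroup with SOX3, pairs with the POU factor OCT4 (POU5F1) on the enhancers of pluripotent cells and is also a neural progenitor factor. SOX17, of the SOXF subgroup, specifies endoderm and is a key factor for primate germ cell fate, where mouse germ cells retain Sox2. SOX15 is the sole SOXG member and can pair with OCT4, and SOX4 and SOX11 are the SOXC factors of many progenitor cells.

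The coding stretch of the HMG box shows how near the SOX2-like genes are to each other, and it is given for 3 mouse orthologs from GENCODE M21 (build GRCm38), since no monkey genome of the files' build was used here. Each stretch is 237 bases (79 codons), 5′ to 3′ on the coding strand, with capitals where the base differs from that of Sox2.
Sox2: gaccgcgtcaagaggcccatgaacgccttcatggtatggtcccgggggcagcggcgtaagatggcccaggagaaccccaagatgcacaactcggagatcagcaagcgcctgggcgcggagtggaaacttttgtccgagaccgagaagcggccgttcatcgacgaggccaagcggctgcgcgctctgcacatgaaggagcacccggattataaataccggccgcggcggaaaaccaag
Sox3: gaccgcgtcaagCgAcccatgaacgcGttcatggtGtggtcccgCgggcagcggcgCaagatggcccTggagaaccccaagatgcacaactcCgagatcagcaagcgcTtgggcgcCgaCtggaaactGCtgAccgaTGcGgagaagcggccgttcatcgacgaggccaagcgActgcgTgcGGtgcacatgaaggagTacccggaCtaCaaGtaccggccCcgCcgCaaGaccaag
Sox15: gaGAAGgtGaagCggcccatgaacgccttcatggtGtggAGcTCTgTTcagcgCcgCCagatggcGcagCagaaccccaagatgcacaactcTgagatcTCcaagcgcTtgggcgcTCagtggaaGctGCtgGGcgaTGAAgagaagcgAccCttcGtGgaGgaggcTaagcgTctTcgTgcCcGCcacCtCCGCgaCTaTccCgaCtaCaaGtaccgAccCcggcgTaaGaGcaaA
The Sox3 box shared 208 of 237 bases with Sox2 (87.8%) and that of Sox15 173. Sox4 and Sox11 were 89.5% identical to each other, and they shared 68.8% and 67.9% with Sox2. Codon 57 of the box, known to bear on the composite motif that the factor prefers with OCT4, carried the substitution A169G in Sox4 and Sox11, counted from 1 at the 5′ end of the box with the Sox2 base first. Sox3 and Sox15 had the codon of Sox2. In GRCm38, Sox2 lies on chromosome 3 (34650405 to 34652461, plus strand), Sox3 on X (60891366 to 60893430, minus), and Sox15 on 11 (69655314 to 69656727, plus). The box lies within 1 exon in each of these 3 genes.

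The 38 monkey libraries held about 1077000 to 7456000 reads (median 2296000), so that 1 read was worth 0.134 to 0.929 RPM, and the 4 mouse libraries held 2263000 to 2478000. Of the 33 reporter libraries, 9 were left out because reading the column names in alphabetical order would move them to another group. PRDM1, the gene behind the BT sort, was 85.1 to 318 RPM in the 18 sorted BT or BTAG libraries kept and 0 to 11.1 RPM in the 6 ESC or AG libraries kept. It was 145 to 253 RPM in the 3 ESC or AG libraries left out and 0 to 194 RPM in the 6 sorted ones left out. TFAP2C was 337 to 717 RPM in BTAG libraries, 0.34 to 3.48 RPM in BT libraries and 24.4 and 146 RPM in the AG libraries. Among the 24 libraries kept, 10 could still be exchanged within their group. In bulk samples, fewer cells that express a gene and less of its RNA per cell cannot be told apart.

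SOX2 fell early. It was 311, 398, 375 and 337 RPM in the 4 reporter ESC libraries. In aRB27 BTAG cells it was 2.92 and 22.9 RPM at day 2, 9.79 and 33.6 RPM at day 4 and 8.89, 12.3 and 13.2 RPM at day 6. In GK15 BTAG cells it was 39.5 RPM at day 2 and 10.7 RPM at day 4, each in a lone library, then 1.67 and 0.60 RPM at day 6. Every BTAG library kept was thus below every reporter ESC library, by day 2 already, and the lowest values stood in GK15 at day 6. At days 8 and 10 in GK15, SOX2 was 1.86 and 6.36, then 2.08 and 3.02 RPM.

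SOX17 moved the other way. It was 3.38, 3.45, 0 and 0 RPM in reporter ESC and already 1109.6 and 1132 RPM in aRB27 and 1190.1 RPM in GK15 at day 2. At day 4 SOX17 was 859.7 and 949.7 RPM in aRB27 and 1037 RPM in GK15, and at day 6 it was 626, 597 and 714 RPM in aRB27 against 831 and 1062 RPM in GK15. The day 2 libraries were the highest, and the aRB27 day 6 libraries were below both GK15 day 6 libraries. At days 8 and 10 the GK15 libraries had 968 and 605, then 613 and 829.6 RPM.

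**Figure D1:**
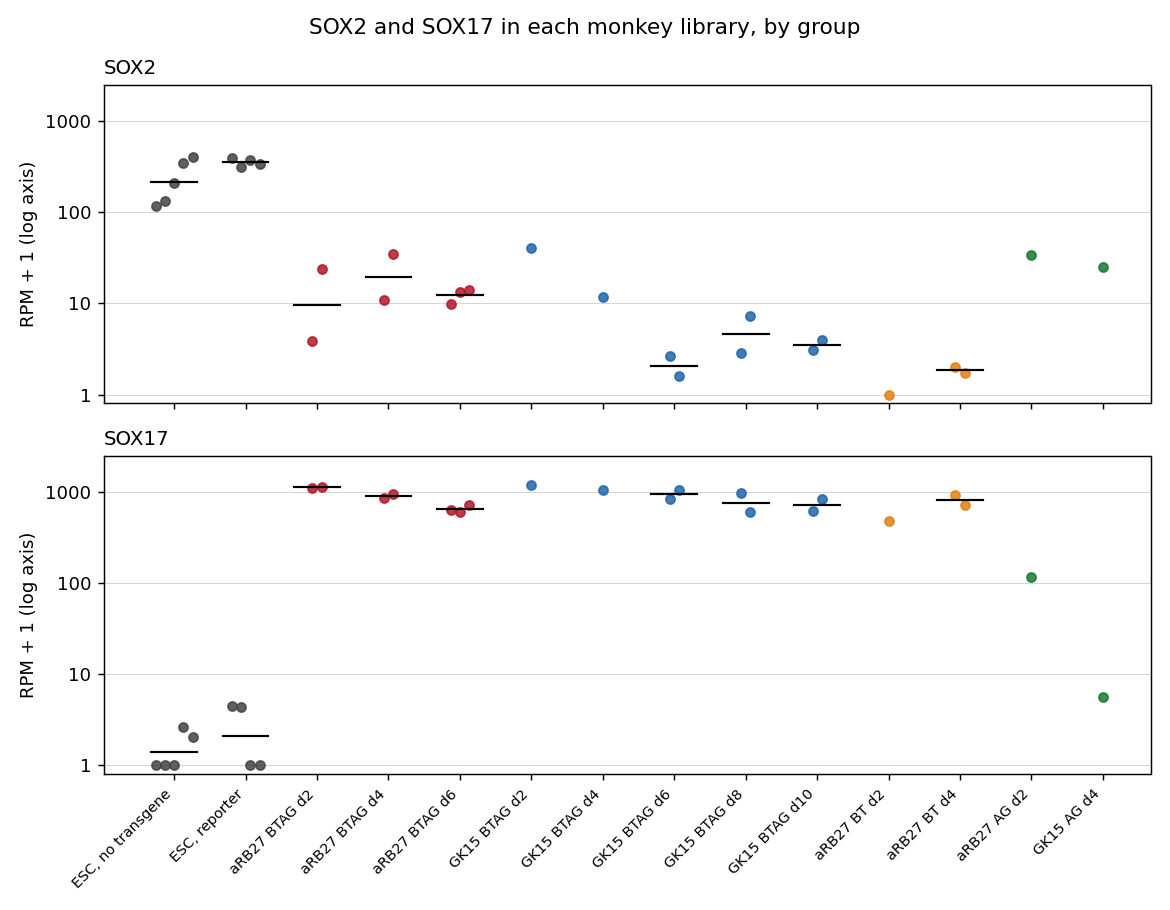
SOX2 and SOX17 in RPM + 1 on a log axis, 1 point per monkey library and a bar at the group mean of log values where a group has more than 1 library, for ESC (grey), BTAG in aRB27 (red) and GK15 (blue), BT (orange) and AG (green). Reporter ESC hold SOX2 at 311 to 398 RPM and SOX17 at 0 to 3.45 RPM, while BTAG libraries hold SOX17 at 597 RPM or more.

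SOX15 joined SOX17 later. Reporter ESC had 0.74, 0.43, 0 and 0 RPM, and day 2 BTAG cells had 5.26 and 9.26 RPM in aRB27 and 7.90 RPM in GK15. At day 4 SOX15 was 80.6 and 62.3 RPM in aRB27 and 50.0 RPM in GK15, and at day 6 it was 74.1, 66.8 and 99.2 RPM in aRB27 and 66.6 and 80.8 RPM in GK15. At days 8 and 10 in GK15 it was 121 and 87.8, then 104 and 96.5 RPM. Day 2 libraries lay above ESC and below every later BTAG library, and the days from 6 to 10 overlapped.

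SOX11, the SOXC factor, was kept at day 2 and was low by day 6. It was 31.8, 22.4, 39.6 and 30.7 RPM in reporter ESC. In aRB27 BTAG cells SOX11 was 23.96 and 33.1 RPM at day 2, 3.45 and 10.6 RPM at day 4 and 1.27, 0.59 and 1.98 RPM at day 6. In GK15 it was 16.3 RPM at day 2, 11.7 RPM at day 4, 1.67 and 3.62 RPM at day 6, 0 and 1.76 RPM at day 8 and 0 and 2.26 RPM at day 10. The day 2 values overlapped those of ESC, and no day 6, 8 or 10 library reached the lowest ESC library.

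SOX3 and SOX4 differed from these. SOX3, the paralog of SOX2, was low at 13.4, 10.8, 20.2 and 15.1 RPM in reporter ESC and was 0 to 1.39 RPM in the 15 BTAG libraries. Pooled over libraries, the 190 SOX3 reads of reporter ESC stood against 3 reads at BTAG day 2, a ratio of 28.3 (95% exact interval 9.53 to 138, counting error only). SOX3 had no read in the 2 GK15 day 6 libraries, so that ESC were at least 19.4-fold higher against a floor of 3 reads over that group. SOX4, in contrast, was 70.9, 16.8, 28.6 and 35.6 RPM in reporter ESC and ranged from 4.69 to 60.9 RPM in BTAG cells, so that the 2 overlapped. At day 6 in aRB27, however, SOX4 was 5.50, 4.69 and 14.55 RPM, below every reporter ESC library.

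**Figure D2:**
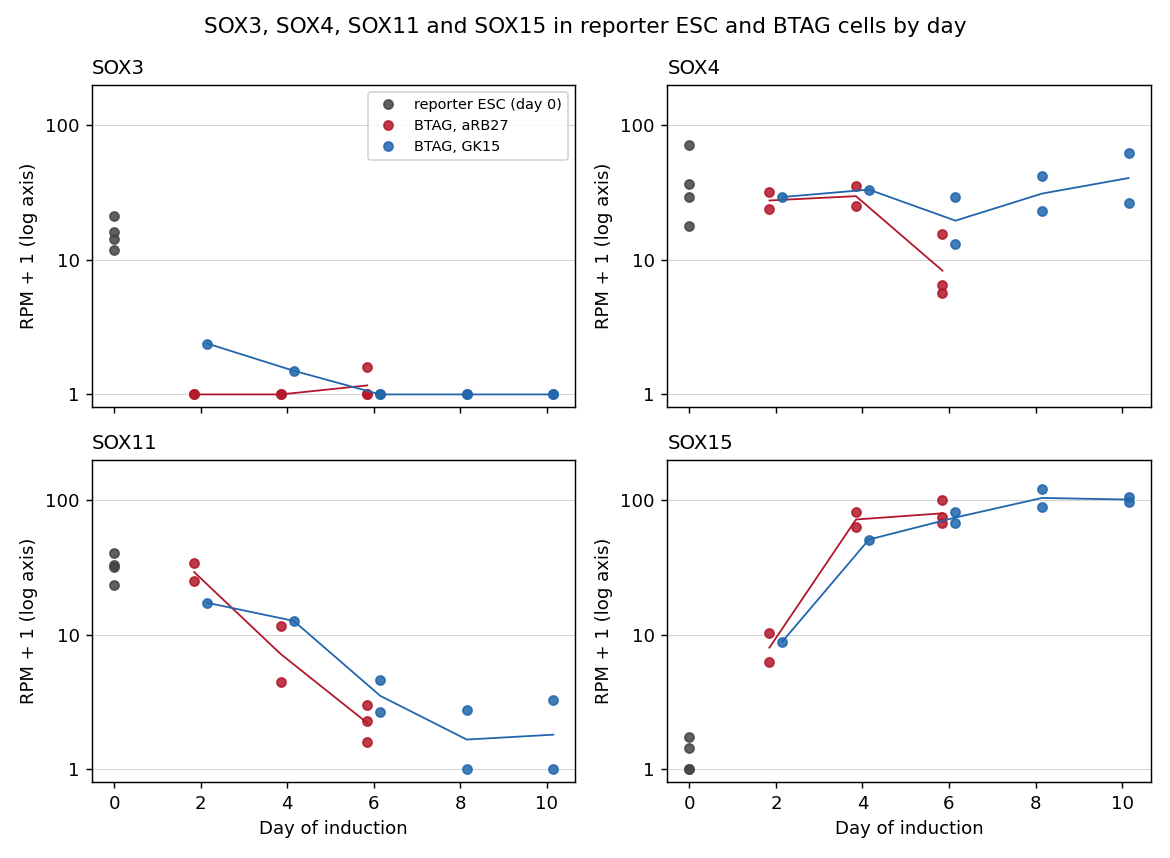
SOX3, SOX4, SOX11 and SOX15 in RPM + 1 on a log axis against the day of induction, 1 point per library, for reporter ESC (grey, day 0) and BTAG cells in aRB27 (red) and GK15 (blue), with lines through the means of log values. SOX15 is at 9.26 RPM or less at day 2 and at 50.0 RPM or more from day 4, while SOX11 is at 3.62 RPM or less from day 6.

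In the order of group means, reporter ESC (355 ± 38.7 RPM, SD, n = 4) and the ESC lines without transgenes (243 ± 130.3 RPM, SD, n = 5) stood first for SOX2, with ranges that overlapped. Lone libraries of GK15 BTAG day 2, aRB27 AG day 2 and GK15 AG day 4 followed, and BT cells of days 4 and 2 were last. For SOX17 the first 2 groups were GK15 and aRB27 BTAG day 2, the BTAG groups of days 4 to 10 each overlapped a neighbour, with BT day 4 among them, and the AG libraries and ESC were last. For SOX15, the GK15 day 8 and 10 groups led (104 ± 23.3 and 100.2 ± 5.15 RPM, SD, n = 2 each) and overlapped aRB27 day 6. For SOX11, the aRB27 AG day 2 library (59.8 RPM), aRB27 BT day 4 and the GK15 AG day 4 library (48.9 RPM) led, ahead of ESC.

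Differences were tested on log2(RPM + 1) with limma over all 10701 genes that reached 10 RPM in at least 2 libraries of the fit. A gene was called at a Benjamini-Hochberg adjusted p under 0.05 and a log2 difference of at least 1. The comparisons with ESC share the same 4 reporter ESC libraries. SOX17 passed the filter through induced libraries alone, SOX15 through BTAG libraries alone and SOX3 through ESC libraries alone. For these genes, the direction of a call between such libraries and the rest was largely set by the filter. At day 2, with both media averaged, 4 of the 6 SOX genes were called, against 16% (10.5% higher, 5.51% lower) of all genes tested. SOX2 fell by 4.16 ± 0.52 (SE, limma adjusted p = 7.56e-06) and SOX3 fell by 3.33 ± 0.42 (limma adjusted p = 7.71e-06). SOX17 rose by 9.10 ± 0.43 (limma adjusted p = 2.32e-11), the second largest increase of all genes tested, and SOX15 rose by 2.75 ± 0.31 (limma adjusted p = 2.53e-06). With a pseudocount of 10 the SOX15 difference was 0.77 and no longer called. SOX11 (-0.49 ± 0.48) and SOX4 (-0.27 ± 0.47) were not called, with limma adjusted p = 0.531 and 0.751.

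At day 6 in aRB27, all 6 were called, against 25.9% (12.8% higher, 13.1% lower) of all genes. SOX17 (8.26 ± 0.42, limma adjusted p = 2.76e-11) and SOX15 (5.99 ± 0.30, limma adjusted p = 2.90e-11) rose. SOX2 fell by 4.85 ± 0.50 (limma adjusted p = 3.61e-07), SOX11 fell by 3.84 ± 0.47, SOX3 fell by 3.73 ± 0.40 and SOX4 fell by 2.04 ± 0.45 (limma adjusted p = 0.00147). In GK15 at day 6, 5 of 6 were called, against 24.8% (14% higher, 10.8% lower) of all genes. SOX17 rose by 8.81 ± 0.47 and SOX15 by 5.89 ± 0.34, while SOX2 fell by 7.42 ± 0.57, the fifth largest decrease of all genes tested. SOX3 fell by 3.96 ± 0.46 and SOX11 fell by 3.17 ± 0.53 (limma adjusted p = 0.000121). SOX4 was not called (-0.81 ± 0.51, limma adjusted p = 0.262). With every library as labelled, the left-out ones included, 1 of the 6 was called at day 2 and none in GK15 at day 6. SOX17 then differed by 5.99 at day 2 and 4.45 in GK15 at day 6 (limma adjusted p = 0.114 and 0.271), and SOX2 by -2.94 and -4.03 (limma adjusted p = 0.201 and 0.167).

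**Figure D3:**
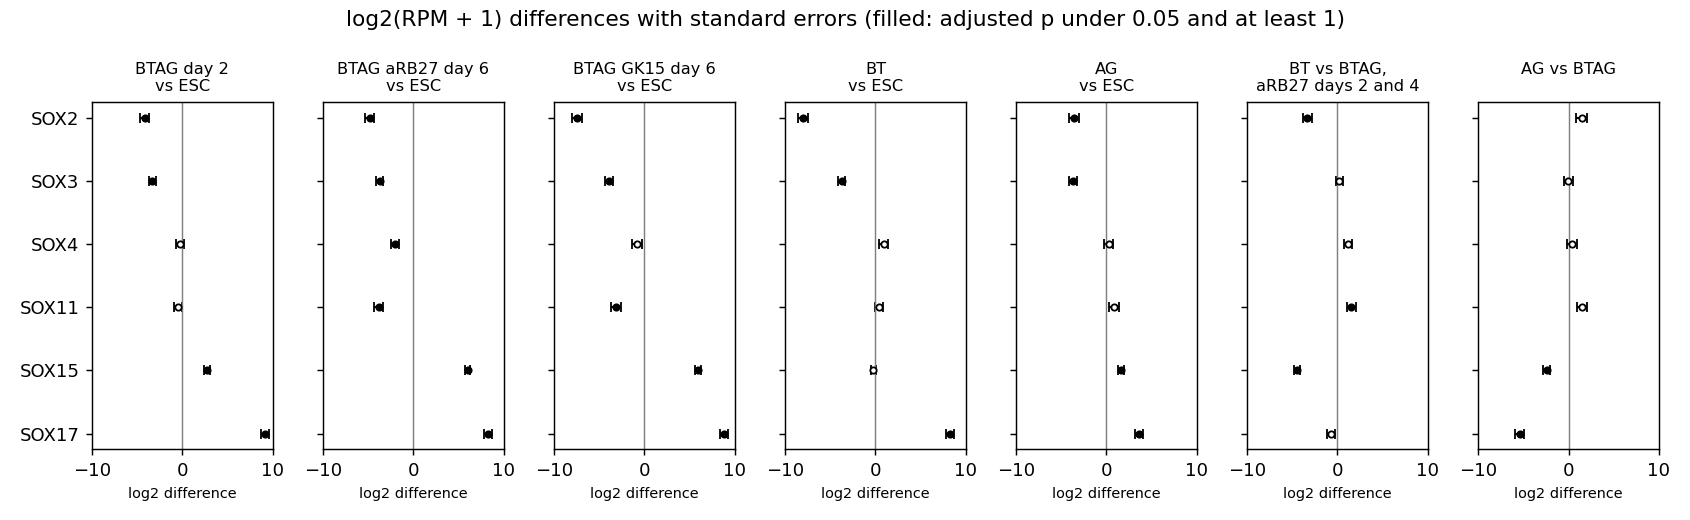
Differences in log2(RPM + 1) with their standard errors for the 6 SOX genes in 7 comparisons, filled where called. SOX2 lies left of 0 and SOX17 right of 0 in each of the 5 comparisons with ESC, and SOX15 is near 0 in BT cells alone among these.

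Within BTAG cells, the day from 2 to 10 was fitted as a slope over 15 libraries with the medium as a term, and a call needed a change of at least 1 over 8 days. SOX11 (-0.57 ± 0.10 per day, limma adjusted p = 0.000477) and SOX15 (0.47 ± 0.08 per day, limma adjusted p = 0.000659) were called among the 5 SOX genes measured, against 19.4% (7.14% higher, 12.2% lower) of 9826 genes. SOX17 had a slope of -0.124 ± 0.027 per day (limma adjusted p = 0.00269), just under the size needed. Without GK15 day 2 library 1 (-0.138), day 4 library 1 (-0.128), day 6 library 1 (-0.1254), day 8 library 1 (-0.130) or day 10 library 2 (-0.143), its slope was called. The SOX2 slope, -0.24 ± 0.12 per day, was not called (limma adjusted p = 0.140), while edgeR on recovered reads gave -0.35 (adjusted p = 0.0272) and DESeq2 -0.36 (adjusted p = 0.0226). Without the aRB27 day 2 library 1, whose SOX2 was 2.92 RPM, limma called it too (-0.33, adjusted p = 0.0266), and without the lone GK15 day 2 library the slope was -0.042 (limma adjusted p = 0.857). SOX4 had -0.07 ± 0.09 per day. The media were also fitted alone, a split chosen after seeing the data. In aRB27 alone 4 of the 5 were called: SOX11 (-0.93), SOX15 (0.79), SOX4 (-0.46, limma adjusted p = 0.0365) and SOX17 (-0.202, limma adjusted p = 0.00944), while SOX2 had 0.063. In GK15 alone SOX11 (-0.45) and SOX15 (0.36) were called, and SOX2 (-0.35), SOX17 (-0.096, limma adjusted p = 0.0752) and SOX4 (0.065) were not. Whether a slope differed between the media was not tested.

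From day 6 to days 8 and 10 in GK15, 0 of the 6 SOX genes were called, against 0.234% (0.0841% higher, 0.15% lower) of all genes, and none had an unadjusted p under 0.05. edgeR and DESeq2 called 0 as well. The largest differences were -1.02 ± 0.53 for SOX11, 0.96 ± 0.57 for SOX2 and 0.86 ± 0.51 for SOX4. SOX15 differed by 0.46 ± 0.34 and SOX17 by -0.35 ± 0.47, with 2 libraries at day 6.

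The media were compared over days 2, 4 and 6, and 0 of the 6 SOX genes were called by limma, edgeR or DESeq2, against 0.0841% (0.00934% higher, 0.0748% lower) of all genes for limma. None of the 6 had an unadjusted limma p under 0.05. SOX2 differed by 0.41 ± 0.43 (aRB27 minus GK15), and by -0.022 without the aRB27 day 2 library 2. Its pattern over days is where the media parted in level. In GK15 SOX2 went from 39.5 to 10.7 to 1.14 ± 0.757 RPM (SD, n = 2) at days 2, 4 and 6, and in aRB27 it was 12.9 ± 14.1, 21.7 ± 16.9 and 11.5 ± 2.29 RPM (SD, n = 2, 2 and 3). The test of that difference, the change from day 2 to 6 in aRB27 minus that in GK15, was 4.64 ± 1.00 on the log2 scale with an unadjusted p of 0.000192, the second highest of all genes, but limma adjusted p = 0.962. No gene was called for this term (0% of all genes; 400 genes had an unadjusted limma p under 0.05, and edgeR and DESeq2 called 0 with 395 and 392). Without the aRB27 day 2 library 2 the SOX2 term was 5.95 and called (limma adjusted p = 0.0251). The GK15 day 2 value rests on 1 library.

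In BT cells SOX17 was high while SOX15 and SOX2 were near 0. BT single positive cells had SOX17 at 475 RPM at day 2 and 925 and 716 RPM at day 4, and SOX2 at 0, 1.00 and 0.72 RPM. SOX15 in BT cells was 0 RPM in 2 libraries and 0.36 RPM in the third, and SOX11 was 33.1, 36.8 and 65.5 RPM. SOX4 was 74.1, 43.3 and 66.6 RPM. Set against the aRB27 BTAG libraries of days 2 and 4, BT libraries were apart in SOX15 and SOX2. In SOX17 they overlapped at day 4 alone, where the BTAG libraries had 859.7 and 949.7 RPM. The lone BT library of day 2 was below both BTAG libraries of that day, which had 1109.6 and 1132 RPM. The SOX2 values of BT cells overlapped those of GK15 BTAG day 6.

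**Figure D4:**
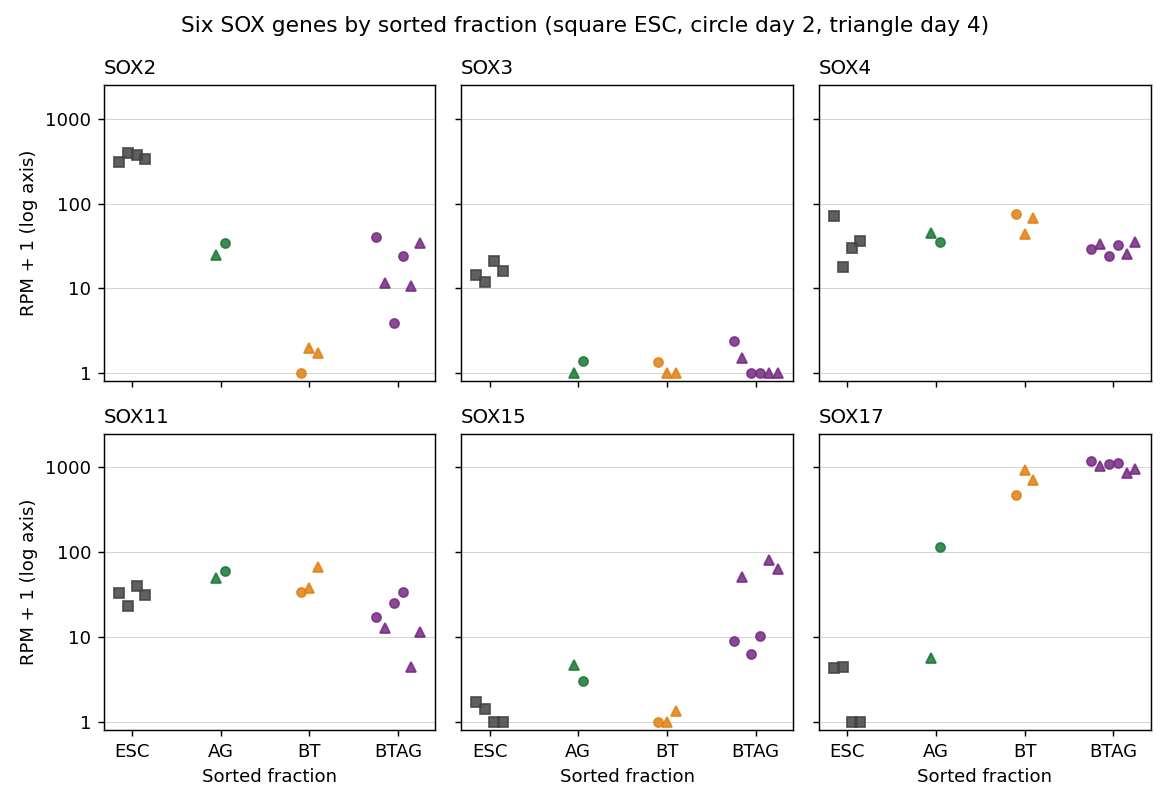
The 6 SOX genes in RPM + 1 on a log axis, 1 point per library, in reporter ESC, AG, BT and BTAG cells, with squares for ESC, circles for day 2 and triangles for day 4. BT cells hold SOX17 at 475 RPM or more, and of their libraries only that at 925 RPM reaches the BTAG range shown. For SOX15 BT cells lie with ESC, at 0.36 RPM or less.

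Against BTAG cells of the same days in aRB27, 3 of 6 SOX genes were called in BT cells, against 15% (8.03% higher, 6.94% lower) of all genes. SOX15 was lower (-4.47 ± 0.31, limma adjusted p = 9.17e-09), and 1 read in the pooled BT libraries stood against 268 in the BTAG libraries, a ratio of 290.4 (95% exact interval 51.7 to 11513, counting error only). SOX2 was lower (-3.33 ± 0.52, limma adjusted p = 0.00011). SOX11 was higher by 1.51 ± 0.48 (limma adjusted p = 0.0326), a call lost without aRB27 BTAG day 2 library 1 or 2, BTAG day 4 library 1 or BT day 4 library 2 (limma adjusted p from 0.0509 to 0.138) and with a pseudocount of 0.1 (0.311) or no filter (0.0846). With every library as labelled neither SOX2 nor SOX11 was called (limma adjusted p = 0.187 and 0.371). SOX17 (-0.69 ± 0.43, limma adjusted p = 0.316) and SOX4 (1.16 ± 0.47, limma adjusted p = 0.0962) were not called. Against ESC, BT cells had 3 of 6 called, against 17.8% (10.9% higher, 6.99% lower) of all genes. SOX17 was higher by 8.21 ± 0.43, the largest increase of all genes tested, SOX2 was lower (-8.02 ± 0.52), the largest decrease, and so was SOX3 (-3.74 ± 0.42). With every library as labelled the SOX17 difference was 6.38 and not called (limma adjusted p = 0.0753). In BT cells the SOX3 level was 0.34, 0 and 0 RPM.

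Endoderm genes were higher in BT than in BTAG cells, a comparison in which SOX17 was not called. Of 14 listed endoderm genes, 12 were measured and 10 were higher with none lower, with a list median of 5.10 against 0.01 for all genes. Of all genes 8.03% were higher and 6.94% lower. The filter took in the BT libraries, and in the fit of BTAG libraries alone 5 of the 14 passed it. For genes that passed through the BT libraries alone, this direction was set by the filter. LHX1, an organizer and endoderm factor (6.80 ± 0.70), TTR, a secreted carrier of thyroid hormone (5.66 ± 0.82), and HNF4A, a hepatic and visceral endoderm factor (5.63 ± 0.64), were among them. The summed level of the list was 2357 to 4538 RPM in the 3 BT libraries, 56.2 to 583 RPM in the 15 BTAG libraries and 4.84 to 223 RPM in reporter ESC. No listed gene was at 0 in all BT libraries, while HNF4A and TTR were at 0 in the 3 BTAG libraries of day 2. In BTAG day 2 cells against ESC, where SOX17 was at its highest, 3 of the 12 were higher and none lower: GATA4 (4.50 ± 0.42), FOXA1 (2.53 ± 0.39) and FOXA2 (1.81 ± 0.53). Of all genes 10.5% were higher and 5.51% lower there. In the fit of ESC libraries alone 1 of the 14 passed the filter. For genes that passed through induced libraries alone, a rise over ESC was largely set by the filter. At day 6, 3 were higher and 2 lower than in ESC in aRB27, against 12.8% and 13.1% of all genes. In GK15, 2 were higher and 2 lower, against 14% and 10.8%. The part of endoderm cells in the SOX17 level was not tested.

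AG mid positive cells had low SOX17, and their SOX2 lay within the range of BTAG cells of days 2 and 4. SOX17 was 114 RPM in the aRB27 day 2 library and 4.63 RPM in the GK15 day 4 library. SOX2 was 33.4 and 23.9 RPM in the same libraries, SOX11 59.8 and 48.9 RPM, SOX4 34.7 and 44.1 RPM and SOX15 2.06 and 3.74 RPM. The 2 libraries differ in medium and day, and both lay below every BTAG and BT library in SOX17.

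Against BTAG cells of the same medium and day, 2 of 6 SOX genes were called in AG cells, against 11.1% (5.05% higher, 6.02% lower) of all genes. SOX17 (-5.40 ± 0.51, limma adjusted p = 5.11e-07) and SOX15 (-2.41 ± 0.37, limma adjusted p = 0.000156) were lower. Neither was called with every library as labelled (-1.52 and -0.40). SOX2 was 1.46 ± 0.62 higher and not called (limma adjusted p = 0.151), but was called without the aRB27 BTAG day 2 library 2 (2.11, limma adjusted p = 0.0109) and was 0.81 without library 1 (limma adjusted p = 0.442). SOX11 was 1.52 ± 0.57 higher and not called by limma (adjusted p = 0.101), while edgeR (1.55, adjusted p = 0.0255), DESeq2 (1.57, adjusted p = 0.00876) and limma with a pseudocount of 10 (1.15, adjusted p = 0.00304) called it. Against ESC, 4 of 6 were called in AG cells, against 11% (7.23% higher, 3.81% lower) of all genes. SOX3 (-3.71 ± 0.46) and SOX2 (-3.60 ± 0.57) were lower, and SOX17 (3.60 ± 0.47) and SOX15 (1.60 ± 0.34, limma adjusted p = 0.00322) were higher. With a pseudocount of 10 the SOX15 difference was 0.32 and not called. With every library as labelled none of these 4 was called, with limma adjusted p from 0.0653 (SOX3) to 0.468 (SOX17). Mesoderm and amnion genes moved with this fraction: 6 of 9 listed genes were measured, and 5 were higher and 1 lower than in BTAG cells (median 2.68 against 0.03 for all genes). In the fit of BTAG libraries alone 4 of the 9 passed the filter. HAND1 (4.85 ± 0.89) and ISL1 (4.39 ± 0.79), factors of lateral mesoderm and amnion, and TFAP2A (3.22 ± 0.60), of amnion and surface ectoderm, led. Their summed level was 3196 and 3203 RPM in the AG libraries and 39.0 to 379.7 RPM in BTAG libraries, and its part in the SOX levels was not tested.

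POU5F1, the partner of SOX2, was high in BTAG cells. It was 1219 to 3951 RPM in the 15 BTAG libraries (median 2308), 24.3 to 319.5 RPM in BT cells, 75.9 and 792 RPM in AG cells and 672 to 1927 RPM in the 9 ESC libraries. POU5F1 rose over reporter ESC by 1.12 ± 0.36 at day 2 (limma adjusted p = 0.0333), 2.12 ± 0.35 at day 6 in aRB27 and 1.82 ± 0.40 in GK15. Against BTAG cells POU5F1 was lower in BT cells (-4.99 ± 0.36) and in AG cells (-3.05 ± 0.43). POU3F1, a POU factor of primed epiblast and neural cells, fell at day 2 (-2.62 ± 0.62) and at day 6 in aRB27 (-2.87 ± 0.60) and GK15 (-3.04 ± 0.68). Of 8 listed POU genes 4 were measured, 2 were higher and 1 lower at each of these times. Of all genes 10.5% were higher and 5.51% lower at day 2, 12.8% and 13.1% at day 6 in aRB27, and 14% and 10.8% in GK15. The remaining call was POU6F1, higher by 1.28 ± 0.42 at day 2.

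Genes listed as bound by SOX2 split. Of 12 listed, 7 were measured. At day 2 none was higher and 2 were lower than in ESC, TERF1, a telomere protein (-2.82 ± 0.28), and JARID2, a Polycomb cofactor (-1.90 ± 0.31). The list median was -0.64 against 0.05 for all genes, of which 10.5% were higher and 5.51% lower. At day 6, 4 were lower in both media, led by NES, a neural progenitor filament (-4.51 ± 0.42 in aRB27 and -4.96 ± 0.48 in GK15), then TERF1 and LEFTY1, a Nodal antagonist. NANOG, a core pluripotency factor, was higher by 1.19 ± 0.34 in aRB27 and 1.33 ± 0.39 in GK15. It was 1 of 2 listed genes higher in aRB27, with TDGF1 (1.06 ± 0.31), and the only 1 in GK15. Against BTAG cells NANOG was lower in BT (-7.38 ± 0.35) and AG cells (-6.43 ± 0.42). The list median at day 6 was -1.64 in aRB27 and -1.72 in GK15, against -0.08 and 0.01 for all genes. Of all genes 12.8% were higher and 13.1% lower at day 6 in aRB27, and 14% and 10.8% in GK15.

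Germ cell genes rose over ESC in BTAG cells, where SOX17 and SOX15 were higher as well. Of 10 listed, 8 were measured and 7 were higher than in ESC at day 2 and at day 6 in each medium, with none lower. The list median was 2.26 at day 2, 4.35 in aRB27 and 4.60 in GK15. Of all genes 10.5%, 12.8% and 14% were higher, with medians of 0.05, -0.08 and 0.01. In the fit of ESC libraries alone 4 of the 10 passed the filter. KIT, the receptor of SCF, was 5.07 ± 0.65 higher at day 2, and NANOS3, a germ cell RNA-binding protein, 3.71 ± 0.41. TFCP2L1, a factor shared by naive stem cells and germ cells, was 6.85 ± 0.39 higher at day 6 in aRB27. In BT cells 3 of the 8 were lower than in BTAG cells: TFCP2L1 (-3.45 ± 0.40), NANOS3 (-2.93 ± 0.41) and DND1, an RNA-binding protein of germ cells (-1.54 ± 0.30). In AG cells 5 of 8 were lower, led by TFCP2L1 and NANOS3. Of all genes 6.94% were lower in BT and 6.02% in AG cells. No germ cell gene on the list was called higher in BT or AG than in BTAG cells. Against ESC, 5 of the 8 were higher in BT cells and none lower (median 1.77), where SOX15 was 0 to 0.36 RPM. In AG cells 2 of the 8 were higher than in ESC and none lower. Of all genes 10.9% were higher than in ESC in BT and 7.23% in AG cells. The summed level of the list was 2730 to 2803 RPM in BT and 2330 to 3463 RPM in BTAG libraries.

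Of 13 other SOX genes, 5 were measured in the fit. SOX18, a SOXF paralog of SOX17 known for vessel growth, was 4.16 to 29.4 RPM in BTAG libraries, 0 to 7.47 RPM in BT cells, 0.45 and 0.83 RPM in AG cells and 0 to 1.76 RPM in ESC. It rose by 2.15 ± 0.59 at day 2 (limma adjusted p = 0.013), 2.74 ± 0.57 at day 6 in aRB27 and 2.22 ± 0.65 in GK15. Against BTAG cells SOX18 was lower in BT (-3.11 ± 0.59) and AG cells (-3.04 ± 0.70). SOX5, of the SOXD subgroup, rose by 2.46 ± 0.57 at day 2. SOX18 passed the filter through BTAG libraries alone, and SOX5, at 0 to 2.71 RPM in ESC, through induced libraries alone. Their direction against ESC, and that of SOX18 in BT and AG against BTAG cells, was largely set by the filter. SOX9, a SOXE factor of cartilage and gonad, was lower at day 2 (-2.08 ± 0.47) and then rose over days (0.41 ± 0.07 per day, limma adjusted p = 0.000689), to 23.3 to 53.5 RPM in GK15 at days 8 and 10. SOX13, a second SOXD gene, was lower in GK15 at day 6 (-1.15 ± 0.43, limma adjusted p = 0.0483).

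By Pearson correlation of group means of log2(RPM + 1) over 13 groups, as a description, the genes most like SOX2 were CHRDL1, a BMP antagonist (r = 0.916), ADAM23 (0.903), IPO5, an importin (0.902), CLYBL (0.902) and LGALS8, a galectin (0.902). CHRDL1 was 4.32 to 14.5 RPM in reporter ESC and 0.69 to 11.2 RPM in BTAG cells. The genes most like SOX17 were PRDM1 (0.982), the gene of the BT sort, METTL7B (0.975), NKX1-2 (0.970), RBM24, an RNA-binding protein (0.959), and B3GNT2, a glycosyltransferase (0.957). METTL7B was 6.04 to 21.6 RPM in reporter ESC, 69.6 to 132 RPM in BTAG, 69.1 to 114 RPM in BT and 13.3 and 36.7 RPM in AG cells. Among the 6 SOX genes themselves, SOX2 and SOX17 had r = -0.65, SOX2 and SOX3 0.74 and SOX11 and SOX15 -0.90. The groups share sorting gates, media and lines, and PRDM1 itself was sorted for.

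Reporter ESC and the lines without transgenes were compared in their starting SOX levels. These groups share no line label and no title code, so the reporters, the line and the code cannot be told apart. SOX2 was 116.5 and 132 RPM in the 2 CMK6 libraries, 209.9 RPM in 656, 351 RPM in 681F and 407 RPM in 22. Of the 4 SOX genes measured none was called, against 0.2% (0.0527% higher, 0.148% lower) of 9481 genes, and 2 had an unadjusted limma p under 0.05 (SOX3 and SOX4). edgeR and DESeq2 called none as well. SOX3 (1.64 ± 0.62, limma adjusted p = 0.281) and SOX4 (1.66 ± 0.65, limma adjusted p = 0.298) differed most, while SOX2 differed by 0.71 ± 0.36 and SOX11 by 0.69 ± 0.38. SOX17 was 0, 0, 0, 1.63 and 1.04 RPM in the lines without transgenes, and SOX15 averaged 0.406 ± 0.461 RPM (SD, n = 5).

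The mouse table showed another pattern, given side by side since the tables were normalised apart and no test was made across species. Sox2 was 418 and 466.2 RPM at day 4 and 393 and 384 RPM at day 6. Sox17 was 2.65 and 0.88 RPM at day 4 and 0.42 and 0 RPM at day 6, and Sox15 was 72.4 and 104 RPM, then 92.3 and 80.3 RPM. So mouse cells had high Sox2 with Sox17 near 0, where monkey BTAG cells in GK15 had 10.7 RPM SOX2 and 1037 RPM SOX17 at day 4. SOX15 in that monkey library was 50.0 RPM. Any reads of the long non-coding gene Sox2ot, which overlaps mouse Sox2, that fall within Sox2 cannot be told from Sox2 reads.

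**Figure D5:**
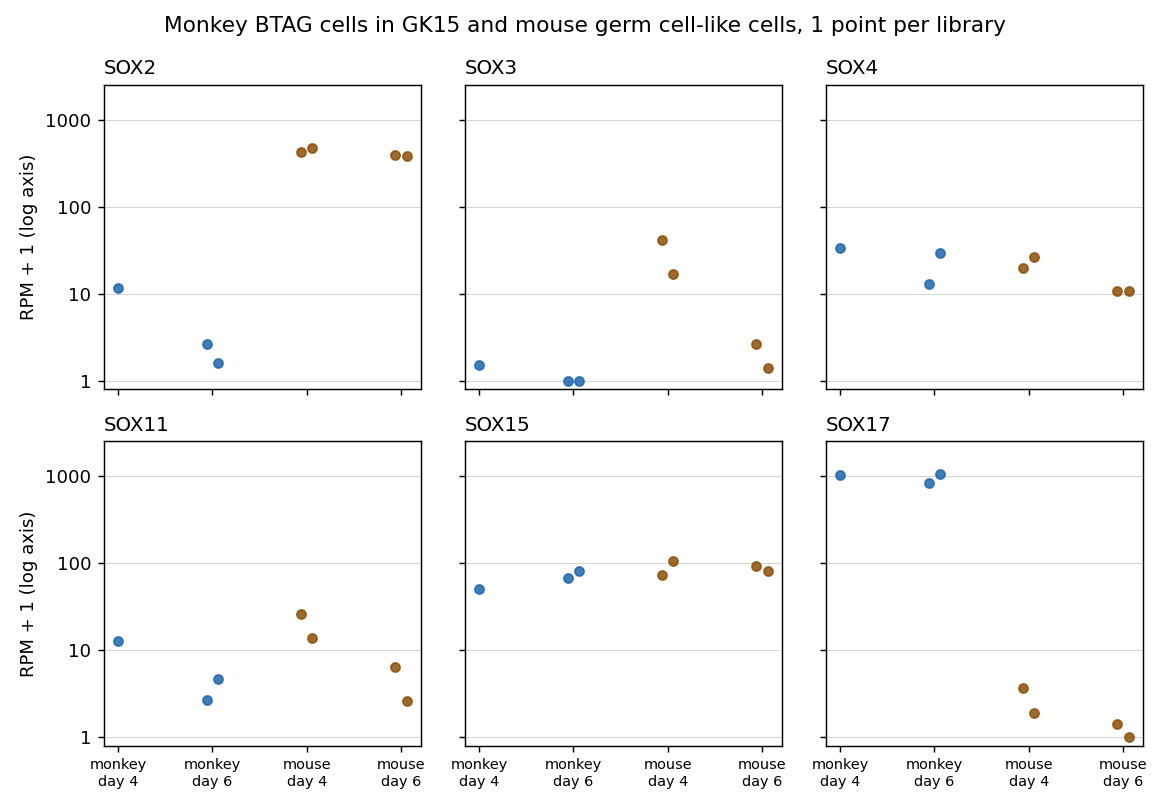
The 6 SOX genes in RPM + 1 on a log axis, 1 point per library, in monkey BTAG cells in GK15 (blue) and mouse cells in GK15 (brown) at days 4 and 6. Mouse cells hold Sox2 at 384 RPM or more and Sox17 at 2.65 RPM or less, while monkey cells hold SOX17 at 831 RPM or more and SOX2 at 10.7 RPM or less.

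From day 4 to day 6 in mouse, 2 of the 5 SOX genes measured were called, against 2.59% (1.2% higher, 1.39% lower) of 8255 genes. Sox3 was 40.6 and 15.9 RPM at day 4 and 1.68 and 0.40 RPM at day 6, a difference of -3.78 ± 0.51 (limma adjusted p = 0.00356). Sox11 was 25.2 and 12.8 RPM, then 5.46 and 1.61 RPM, a difference of -2.21 ± 0.49 (limma adjusted p = 0.0341). Both calls were lost without day 6 library 1 or 2 (Sox3 limma adjusted p = 0.412 and 0.313, Sox11 0.415 and 0.389) and with no filter (0.312 and 0.338). Without a day 4 library neither gene passed the filter, so the direction of these calls was set by the filter. Sox4 was 18.6 and 25.2 RPM, then 9.65 and 9.69 RPM, and was not called (-1.08 ± 0.29, limma adjusted p = 0.0602). Sox2 (-0.18 ± 0.11) and Sox15 (-0.01 ± 0.19) were not called, and the sign of the Sox15 difference turned under other scalings.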

How the data were processed

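Bulk 3′ RNA libraries were read from 1 table per species. The values are RPM per library, as deposited by the authors. Cutadapt 1.3, TopHat 1.4.1, Cufflinks 2.2.0 and GRCm38 are named, without role, per the submitters' processing notes, and the header of the monkey table gives its gene entries the prefix MF5, without saying which assembly was aligned to. Whole reads were recovered from the RPM of 1 read: 99.4% to 99.8% of monkey values up to 100 steps were whole within 0.1 steps. The 24 reporter libraries kept were fitted in 1 limma 3.58.1 model (R 4.3.3) on log2(RPM + 1), with the prior spread following mean level, over genes of at least 10 RPM in at least 2 libraries, with Benjamini-Hochberg adjustment over all of them. Groups with 1 library borrowed their spread from the others. The day slope, the ESC and the mouse comparisons had fits of their own. Alternatives were edgeR 4.0.16 and DESeq2 1.42.0 on recovered reads, other pseudocounts (0.1, 10), no filter, other scalings, every library as labelled, a term for the title code and leaving out each library. The fits were tested on simulated data. Intervals and floors of 3 reads cover counting error only. The SOX genes and gene lists were chosen with earlier results of these data known. Named genes are the 6 SOX genes, up to 4 other SOX genes and 3 members of a list with the largest called differences, and the 5 genes most like SOX2 and SOX17; 1 listed gene and 1 sequence are not reported here. Of the 6 SOX gene identifiers, 5 matched a RefSeq table of another assembly, and all 6 symbols did. All 96 mouse spike-in entries were left out.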

Additional observations from a re-analysis of the deposited data

Results flagged for a closer look

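In the groups as labelled, before the 9 doubtful libraries were left out, 4 of 36 gap tests marked 1 library as far from the rest of its group. The highest and lowest library were tested apart, and how many marks chance would give was not worked out. The fifth library labelled reporter ESC, left out above, had SOX2 at 16.8 RPM, SOX17 at 1211 RPM and SOX15 at 6.39 RPM, against 311 to 398, 0 to 3.45 and 0 to 0.74 RPM in the other 4. In aRB27 BTAG day 6, 1 of 4 libraries had SOX3 at 0.59 RPM, which is 1 read, and the others had 0. A group at 0 in all but 1 library is always marked. The 9 libraries left out were set against the highest reporter ESC library kept. SOX17 was above it in 8 of 9, up to 1211 RPM, SOX15 in 7 of 9, up to 107 RPM, and SOX11 in 1 of 9, at 39.9 RPM. These libraries were used in no comparison of the report except where every library was taken as labelled.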

How the results depend on the processing

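Most values kept their direction and call: of 736 member differences under other settings 684 did, and of 479 with a library left out 457 did. No paired analysis was possible because the labels give no replicate numbers. Running numbers in the titles are not said to mark a shared culture, and no block on them was fitted. Groups with 1 library gave no value without it, the title-code term was not run for ESC lines or mouse, and levels near 1 RPM rest on 1 to 3 reads. In each case below the cause was not tested.

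Genes called in the main fits and under a pseudocount of 10 were 1714 and 1012 (BTAG day 2 against ESC), 2770 and 1622 (aRB27 day 6), 2649 and 1692 (GK15 day 6), 1602 and 998 (BT against BTAG), 1910 and 1115 (BT against ESC), 9 and 22 (media) and 214 and 94 (mouse). With every library as labelled the counts were 136 (day 2), 0 (GK15 day 6), 194 (late GK15, 25 in the main fit), 1 (media), 568 (BT against BTAG), 0 (AG against BTAG, 1184 in the main fit), 851 (BT against ESC) and 0 (AG against ESC, 1182 in the main fit), and the SOX genes called were 1 at day 2, 0 in GK15 day 6, 1 in BT against BTAG and 0 in both AG comparisons. Late GK15 had 10 (median-of-ratios), 15 (quantile), 8 (edgeR), 76 (DESeq2) and 8 (title code) genes. The media gave 3 (pseudocount 0.1), 37 (no filter), 5 (median-of-ratios), 5 (quantile), 4 (edgeR), 49 (DESeq2) and 4 (title code). Medium by day gave 1 (pseudocount 0.1) and 34 (no filter). The slope gave 1104 in GK15 alone (1904 in the main fit) and 4 SOX genes in aRB27 alone. ESC lines gave 316 with DESeq2 (19 in the main fit). Mouse gave 0 genes and 0 SOX genes with no filter, 138 with DESeq2 and 355 by adjusted p alone.

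Leaving out a library gave 0 to 48 genes (late GK15), 3 to 18 (media), 0 to 1 (medium by day, and 0 to 1 SOX genes), 5 to 41 (ESC lines) and 0 to 195 (mouse, with 0 SOX genes).

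Signs turned with every library as labelled for late GK15 SOX2 (-1.57) and SOX17 (2.17), media SOX2 (-0.29) and SOX17 (2.80), AG against BTAG SOX3 (0.48), AG against ESC SOX4 (-0.34) and SOX11 (-0.51), slope SOX17 (0.16) and ESC lines SOX2 (-0.15). With the title code, late SOX17 was 0.098 and AG against BTAG SOX3 0.12, which was 0.078 with quantile scaling. AG against ESC SOX4 was -0.039 with edgeR and -0.018 with DESeq2. Slopes turned for SOX2 in aRB27 alone (0.063) and for SOX4 with edgeR (0.0020) and in GK15 alone (0.065). Mouse Sox15 was 0.054 (median-of-ratios), 0.027 (quantile), 0.018 (edgeR) and 0.018 (DESeq2). Without 1 library, day 2 SOX4 ranged from -0.58 to 0.088, media SOX2 from -0.022 to 0.85, medium by day SOX15 from -0.10 to 0.61, AG against ESC SOX4 from -0.090 to 0.58 and mouse Sox15 from -0.27 to 0.25.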

Other observations

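Genes of mesoderm and amnion differed between BTAG cells at day 2 and reporter ESC. Of 6 measured, 4 were higher and 1 was lower, against 10.5% higher and 5.51% lower of all genes. In the fit of ESC libraries alone 2 of the 9 listed genes passed the filter. HAND1 (7.12 ± 0.75), TFAP2A (5.36 ± 0.50) and ISL1 (4.99 ± 0.67) led, and VTCN1 was lower (-1.87 ± 0.38). Of 4 endothelial genes measured, 2 were higher at day 2, CDH5, a cadherin of endothelium (2.31 ± 0.48), and PECAM1, an endothelial adhesion molecule (2.06 ± 0.57). Over the days that followed, CDH5 fell by 0.56 ± 0.11 per day. In BT cells 3 of the 4 endothelial genes were higher than in ESC, against 10.9% of all genes. Of the 6 listed endothelial genes, 2 passed the filter in the fit of ESC libraries alone. For genes of either list that passed through induced libraries alone, a rise over ESC was largely set by the filter.

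Neural genes, another setting of SOX2 and SOX3, summed to 490 to 533 RPM in BTAG cells at day 2, 43.7 to 120 RPM at day 6 and 511 to 947 RPM in reporter ESC. Of 4 measured, NES (-0.67 ± 0.11 per day) and ZIC2, a zinc finger factor (-0.38 ± 0.09 per day), had called negative slopes over the days of induction. No neural gene had a called positive slope, against 12.2% lower and 7.14% higher of all genes. TUBB3 was the only neural gene called at day 2 against ESC, and it was higher (2.10 ± 0.49, limma adjusted p = 0.0038). NES is also on the list of genes bound by SOX2.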
